A study of Drosophila melanogaster with 9 samples.

Results

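The digestive enzymes of the fly gut were followed here as a set of 42 probe sets among 18769 non-control probe sets, from heads of Drosophila melanogaster, strain 5073 by the labels. A probe set entered the set when its gene symbol began with Jon and a digit, ended in Try, or began with LMan, Mal-A, Mal-B, Amy- or Lys and 1 capital letter. The set held 13 Jonah (Jon) serine proteases, 9 trypsins, 6 lysosomal-type alpha-mannosidases (LMan), 10 maltases (Mal), 3 lysozymes (Lys) and 1 probe set that the platform annotation assigns jointly to a pair of amylase genes. No gene of the set had more than 1 probe set. A current RefSeq gene table holds 52 genes whose symbols meet the same rule: 41 had a probe set of their own, 2 were the amylase pair, and 9 were not analysed here (Jon99Cii, Jon99Ciii, Jon99Fii, deltaTry, gammaTry, LysB, LysC, LysD and LysE).

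Affymetrix arrays were hybridised with biotin-labelled material made from total RNA of heads at zeitgeber time (ZT, hours from lights-on) 3, 7, 11, 15, 19 and 23. There were 3 arrays at ZT3, 2 at ZT15 and 1 at each other time, 9 in all. Of the 18769 probe sets, 10534 to 11577 per array reached a level of 5. ZT15 replicate 2 and ZT3 replicate 1 stood apart, with 10534 and 10584 such probe sets, against 11239 to 11577 on the other 7 arrays. The median over all 18769 probe sets was 6.05 in ZT15 replicate 2 and 6.06 in ZT3 replicate 1, against 6.36 to 6.65 on the others. The labels give the strain number alone, with no genotype, sex, age, feeding or light schedule, so what the strain carries and what food the flies had are unknown here. They also do not say whether arrays of 1 time came from separate collections of flies, so p-values measure the spread between these arrays, which may be technical. All levels below are the natural log of the deposited values, which hybridization controls place on a log2 scale, where a difference of 1 is 2-fold. Levels of different probe sets are not compared with each other, because probe sets bind with different strength.

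In the fly, food is broken down mainly in the midgut, a tube in the thorax and abdomen whose enterocytes secrete enzymes into the lumen. Jonah proteases and trypsins are serine proteases that cut dietary protein, with trypsins cutting after basic residues. Amylases cut starch, and maltases release glucose from the resulting sugars. Alpha-mannosidases trim mannose from glycans, and lysozymes cut the cell wall of bacteria. The head holds the mouthparts and the front of the foregut, but no midgut.

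Most digestive enzymes were low on 4 arrays and high on 5. Over all 42 probe sets the median level was 5.21, 6.04 and 5.75 at ZT3, 8.30 at ZT7, 9.32 at ZT11, 9.88 and 4.32 at ZT15, 9.20 at ZT19 and 8.93 at ZT23. The 3 ZT3 arrays and ZT15 replicate 2 thus lay below the other 5 arrays, and the 2 arrays of ZT15 lay at the opposite ends of all 9. The median over all 11982 named genes stayed between 7.72 and 7.88. The summed level of the set, the log2 of its values added on the linear scale, was 16.82 and 13.66 at ZT15, against 13.80, 14.85 and 14.70 at ZT3. In these samples, fewer cells of a type, less RNA per cell and a different amount of material from outside the head cannot be told apart. Of the 3 genes taken as markers of the set, LManV reached 5 on 9 arrays, Jon25Bii on 7 and zetaTry on 5. The range over the 9 arrays was 5 or more in 24 of the 42 probe sets, against 4.01% of all genes. It was 1 or less in 8, against 62.4% of all genes: Jon66Ci, Jon66Cii, LManI, LManII, LManIV, Mal-A5, Mal-B2 and LysS. Of these, Jon66Cii, LManIV and LysS stayed below 5 on all 9 arrays, 3 of the 42 against 17.7% of all genes.

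**Figure D1:**
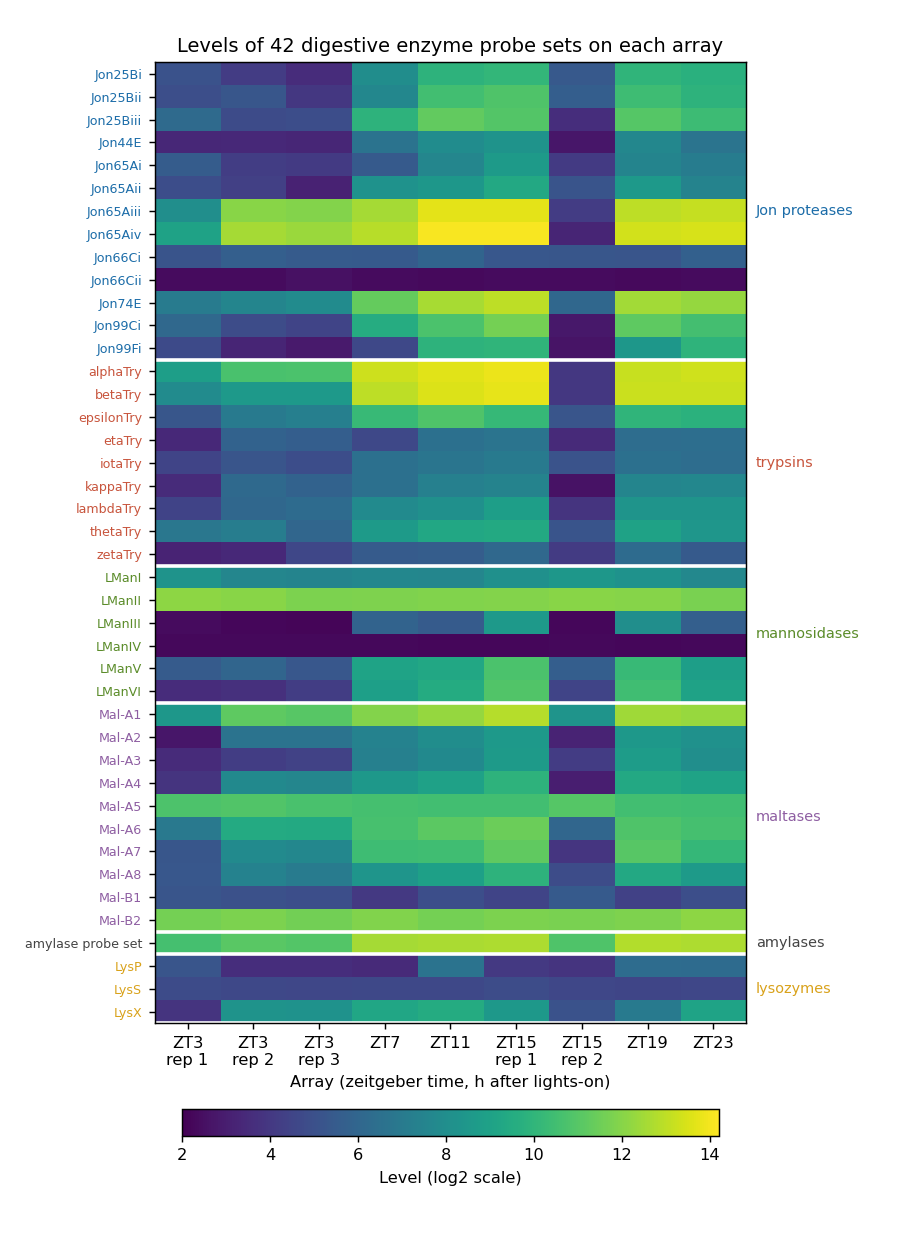
Level of each of the 42 digestive enzyme probe sets (rows, grouped and coloured by family) on each of the 9 arrays (columns, in order of zeitgeber time); colour gives the level on the log2 scale. Most rows are darker at ZT3 and in ZT15 replicate 2 than on the other 5 arrays, while Mal-A5, Mal-B2, LManI and LManII keep 1 colour across the row.

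The arrays also differed in transcripts of other organs. The median over 25 testis and accessory gland genes, which encode sperm and seminal fluid proteins made in the abdomen of males, was 3.70, 9.14 and 9.06 at ZT3, 10.07 at ZT7, 11.40 at ZT11, 11.16 and 3.88 at ZT15, 11.15 at ZT19 and 10.09 at ZT23. It was low in ZT3 replicate 1 and ZT15 replicate 2 alone, whereas the digestive enzymes were low in all 3 ZT3 arrays and ZT15 replicate 2. The summed level of these 25 genes was 15.46 to 16.29 at the 4 times with 1 array, 9.47 to 16.32 at ZT15 and 9.06 to 14.43 at ZT3, and none of them was below 5 on all 9 arrays. A list of 9 muscle genes had medians of 9.07 to 10.69, highest at ZT11, but 3 of the 9 had a range of 5 or more over the arrays, against 4.01% of all genes. Act88F, an actin of flight muscle, was at 12.82 at ZT11 and 6.36 to 9.36 on the other arrays. fln, which encodes a flight muscle thick filament protein, was at 11.40 at ZT11 and 4.37 to 7.70 elsewhere. TpnC4, a troponin C of flight muscle, was at 7.04 at ZT11, 8.64 at ZT19 and 9.05 at ZT23 and at 2.94 to 3.48 on the other 6 arrays. The median over 9 phototransduction genes of the eye, which mark head tissue, was 13.13 to 13.93. Of 10 salivary gland genes, 8 stayed below 5 on every array, while sage (6.73 to 7.41) and fkh (6.19 to 7.20) stayed above 5 on every array. The ovary list, 13 genes of the egg shell and germline, had 11 below 5 on every array. The part of these lists in the results on digestive enzymes was not tested. The limma fits of the digestive enzymes are given with and without ZT3 replicate 1 and ZT15 replicate 2. Ranges over the 9 arrays are given with them alone. Of the 34 digestive enzymes with a range over 1, ZT15 replicate 2 was the lowest array in 19 and ZT3 replicate 1 in 8.

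**Figure D2:**
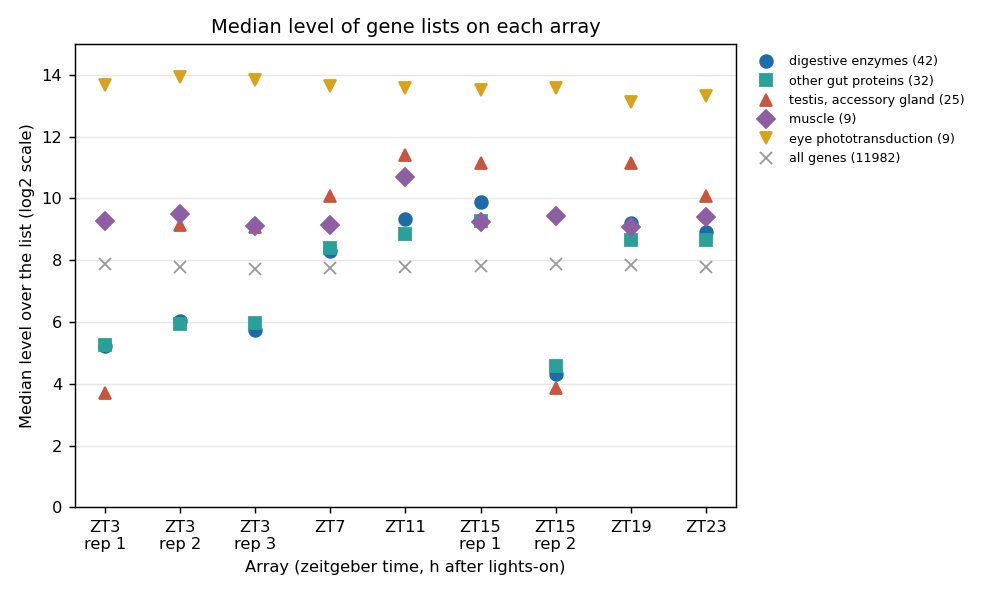
Median level (log2 scale) over each list on each array, in order of zeitgeber time; the number of genes is in the legend, and each point is 1 median on 1 array. The digestive enzymes and the other gut proteins are low on the 3 ZT3 arrays and ZT15 replicate 2, the testis and accessory gland genes on ZT3 replicate 1 and ZT15 replicate 2. The eye and all-gene medians vary little, and the muscle median, highest at ZT11, does not show the 3 muscle genes that differ by 5 or more between arrays.

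Among the Jonah proteases, the Jon25B genes were low at all of ZT3. Jon25Bii, a marker of the set, had levels of 4.91, 5.24 and 3.97 at ZT3, 7.65 at ZT7, 10.50 at ZT11, 10.86 and 5.65 at ZT15, 10.42 at ZT19 and 9.88 at ZT23. Its 3 ZT3 arrays and ZT15 replicate 2 lay below the other 5, of which ZT7 was the lowest. Jon25Bi had levels of 5.09, 4.17 and 3.55 at ZT3, 7.99 at ZT7, 9.90 at ZT11, 10.09 and 5.42 at ZT15, 9.97 at ZT19 and 9.75 at ZT23, with the same arrays low. Jon25Biii had levels of 6.24, 4.78 and 4.89 at ZT3, 9.90 at ZT7, 11.25 at ZT11, 10.92 and 3.58 at ZT15, 10.98 at ZT19 and 10.38 at ZT23, and here ZT15 replicate 2 lay below every ZT3 array.

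Jon74E, a further Jonah protease, had levels of 7.07, 7.55 and 7.88 at ZT3, 11.32 at ZT7, 12.61 at ZT11, 12.97 and 6.07 at ZT15, 12.53 at ZT19 and 12.27 at ZT23. Its 3 ZT3 arrays lay within 0.81 of each other while the ZT15 arrays lay 6.90 apart. Jon99Ci had levels of 6.12, 4.84 and 4.52 at ZT3, 9.53 at ZT7, 10.72 at ZT11, 11.64 and 2.77 at ZT15, 11.16 at ZT19 and 10.57 at ZT23, again with ZT15 replicate 2 lowest. Jon99Fi had levels of 4.73, 3.26 and 2.88 at ZT3, 4.65 at ZT7, 9.90 at ZT11, 9.96 and 2.64 at ZT15, 8.46 at ZT19 and 9.95 at ZT23. In this gene the ZT7 array was as low as ZT3 replicate 1, and the levels above 8 were those of ZT11, ZT15 replicate 1, ZT19 and ZT23. Jon44E had its 3 ZT3 arrays between 3.31 and 3.39, with a range of 5.55 over all arrays.

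Jon65Aiii and Jon65Aiv behaved differently at ZT3 from the Jonah proteases above. Jon65Aiv had levels of 9.04, 12.57 and 12.37 at ZT3, 12.88 at ZT7, 14.09 at ZT11, 14.06 and 3.25 at ZT15, 13.38 at ZT19 and 13.46 at ZT23. Replicates 2 and 3 of ZT3 were close to ZT7, and the low arrays were ZT15 replicate 2 and, less so, ZT3 replicate 1. Its range of 10.84 was the largest of the set. Jon65Aiii had levels of 8.01, 12.04 and 11.92 at ZT3, 12.57 at ZT7, 13.71 at ZT11, 13.70 and 4.15 at ZT15, 12.996 at ZT19 and 13.11 at ZT23, the same arrays being low. Their neighbours in the genome, Jon65Aii and Jon65Ai, did not share this: Jon65Aii had levels of 4.87, 4.29 and 3.15 at ZT3, 8.22 at ZT7, 8.47 at ZT11, 9.36 and 5.15 at ZT15, 8.58 at ZT19 and 7.45 at ZT23, with all 3 ZT3 arrays low. Jon65Ai lay at 4.20 and 4.08 in ZT3 replicates 2 and 3 and ran up to 8.63 in ZT15 replicate 1. Jon66Cii stayed below 5 on every array (2.30 to 2.54), and Jon66Ci stayed between 5.16 and 5.94.

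The trypsins were all lower in ZT15 replicate 2 than in replicate 1, by 1.89 to 9.89. alphaTry had levels of 8.84, 10.68 and 10.77 at ZT3, 13.25 at ZT7, 13.66 at ZT11, 13.84 and 3.96 at ZT15, 13.17 at ZT19 and 13.31 at ZT23. ZT3 replicates 2 and 3 lay between ZT7 and ZT3 replicate 1, and ZT15 replicate 2 was far below all. betaTry, whose sequence is close to that of alphaTry and of genes not analysed here, had levels of 7.89, 8.60 and 8.61 at ZT3, 12.99 at ZT7, 13.55 at ZT11, 13.76 and 3.98 at ZT15, 13.20 at ZT19 and 13.22 at ZT23. Whether the probes tell these copies apart was not tested, here or in other runs of related genes, so values of such copies are uncertain.

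epsilonTry, which lies between alphaTry and betaTry in gene order, had levels of 5.26, 7.03 and 7.25 at ZT3, 10.21 at ZT7, 10.86 at ZT11, 10.18 and 5.22 at ZT15, 10.004 at ZT19 and 9.81 at ZT23. Here ZT3 replicate 1 and ZT15 replicate 2 were the lowest arrays, close to each other. zetaTry, a marker of the set, had levels of 3.19, 3.39 and 4.58 at ZT3, 5.49 at ZT7, 5.59 at ZT11, 6.15 and 4.12 at ZT15, 6.28 at ZT19 and 5.47 at ZT23, so it stayed below 5 at ZT3 and in ZT15 replicate 2 and above 5 on the other arrays. thetaTry had levels of 6.84, 7.19 and 6.05 at ZT3, 8.65 at ZT7, 9.31 at ZT11, 9.41 and 5.17 at ZT15, 9.05 at ZT19 and 8.43 at ZT23, and lambdaTry of 4.44, 6.09 and 6.26 at ZT3, 7.83 at ZT7, 8.11 at ZT11, 8.83 and 3.84 at ZT15, 8.32 at ZT19 and 8.33 at ZT23. In lambdaTry, but not in thetaTry, ZT3 replicate 1 was more than 1 below the other ZT3 arrays. Of the rest, iotaTry ran from 4.51 to 7.01, kappaTry from 2.60 to 7.64 and etaTry from 3.40 to 6.72.

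The mannosidases fell into flat and variable genes. LManII had levels of 12.11, 12.03 and 11.81 at ZT3, 11.83 at ZT7, 11.88 at ZT11, 11.93 and 12.03 at ZT15, 12.00 at ZT19 and 11.73 at ZT23, a range of 0.38. LManI stayed between 7.51 and 8.44, and no array stood apart in either of these 2 neighbouring genes. In the second run of neighbours, LManV, a marker of the set, had levels of 5.48, 5.99 and 5.34 at ZT3, 9.09 at ZT7, 9.34 at ZT11, 10.76 and 5.66 at ZT15, 10.23 at ZT19 and 8.84 at ZT23, and LManVI of 3.57, 3.69 and 4.22 at ZT3, 8.90 at ZT7, 9.49 at ZT11, 10.90 and 4.48 at ZT15, 10.46 at ZT19 and 9.02 at ZT23. Both were low at ZT3 and in ZT15 replicate 2, and both were higher in ZT15 replicate 1 and at ZT19 than at ZT7, ZT11 or ZT23. LManIII had levels of 2.37, 2.23 and 2.15 at ZT3, 5.88 at ZT7, 5.50 at ZT11, 8.62 and 2.22 at ZT15, 8.01 at ZT19 and 5.68 at ZT23, with the same low arrays and the same top 2 arrays. LManIV, in the same run, lay between 2.20 and 2.26 and was not above 5 anywhere.

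The maltases of the Mal-A run mostly had their lowest ZT3 level in replicate 1, where Jon25Bi and Jon25Biii had their highest. Mal-A1 had levels of 8.48, 11.17 and 11.05 at ZT3, 11.94 at ZT7, 12.27 at ZT11, 12.84 and 8.29 at ZT15, 12.48 at ZT19 and 12.34 at ZT23. Its 2 low arrays were ZT3 replicate 1 and ZT15 replicate 2, with ZT3 replicates 2 and 3 close below ZT7. Mal-A6 had levels of 6.91, 9.46 and 9.41 at ZT3, 10.66 at ZT7, 11.13 at ZT11, 11.47 and 6.03 at ZT15, 10.84 at ZT19 and 10.59 at ZT23, with the same low arrays. Mal-A7 had levels of 5.27, 7.82 and 7.64 at ZT3, 10.41 at ZT7, 10.45 at ZT11, 11.22 and 3.88 at ZT15, 11.02 at ZT19 and 10.11 at ZT23, and here ZT3 replicates 2 and 3 lay between the low arrays and ZT7. The difference of ZT3 replicate 1 from the mean of replicates 2 and 3 was -3.92 in Mal-A2, -3.85 in Mal-A4 and -1.91 in Mal-A8. Mal-A3 had levels of 3.51, 4.21 and 4.43 at ZT3, 7.32 at ZT7, 7.77 at ZT11, 8.66 and 4.16 at ZT15, 8.75 at ZT19 and 8.02 at ZT23, where all 3 ZT3 arrays were low. Mal-A5, in the middle of the same run of 8 neighbouring genes, had levels of 10.78, 10.87 and 10.68 at ZT3, 10.61 at ZT7, 10.49 at ZT11, 10.49 and 10.96 at ZT15, 10.51 at ZT19 and 10.47 at ZT23, and no array stood apart. Mal-B2 had levels of 11.65, 11.78 and 11.62 at ZT3, 11.91 at ZT7, 11.66 at ZT11, 11.78 and 11.72 at ZT15, 11.84 at ZT19 and 12.15 at ZT23 and was as flat. Mal-B1, its neighbour, ran from 4.003 to 5.47.

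The amylase probe set had levels of 10.61, 11.10 and 10.93 at ZT3, 12.56 at ZT7, 12.64 at ZT11, 12.70 and 10.85 at ZT15, 12.78 at ZT19 and 12.68 at ZT23. The same 4 arrays were low as for Jon25Bii, but they stayed above 10, and the range was 2.18. Of the lysozymes, LysX had levels of 3.83, 8.26 and 8.20 at ZT3, 9.21 at ZT7, 9.50 at ZT11, 8.49 and 5.10 at ZT15, 7.01 at ZT19 and 9.07 at ZT23, with ZT3 replicate 1 and ZT15 replicate 2 low and the single ZT19 array next. LysP, known from salivary gland, had levels of 5.21, 3.60 and 3.60 at ZT3, 3.46 at ZT7, 6.64 at ZT11, 4.02 and 3.83 at ZT15, 6.29 at ZT19 and 6.25 at ZT23, above 6 at ZT11, ZT19 and ZT23 alone, the 3 arrays on which the muscle gene TpnC4 was above 5; the part of muscle transcripts in this was not tested. LysS stayed below 5 on every array (4.53 to 4.85).

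**Figure D3:**
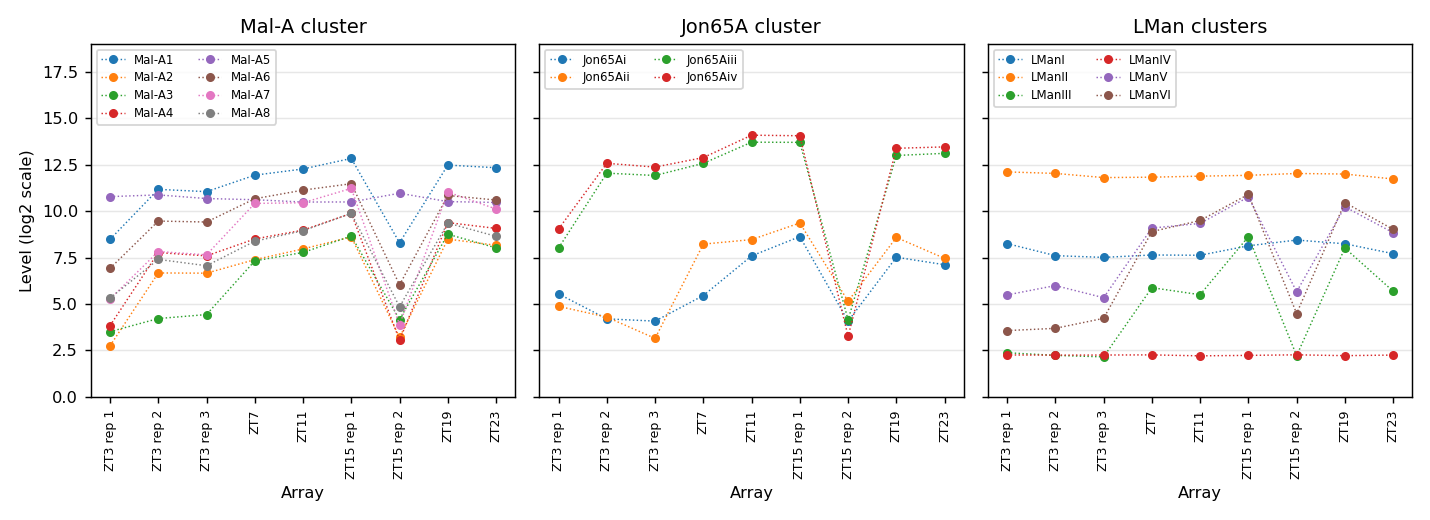
Level (log2 scale) on each array, in order of zeitgeber time, for neighbouring genes: the 8 Mal-A maltases, the 4 Jon65A proteases, and the mannosidases LManI and LManII (1 run) with LManIII to LManVI (another). Dotted lines join points of 1 gene and are no time course between replicates. Mal-A5 and LManIV are flat beside variable neighbours, LManIV below 5 on every array, while LManI and LManII are both flat. Jon65Aiii and Jon65Aiv are high in ZT3 replicates 2 and 3, where Jon65Ai and Jon65Aii are low.

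By gene order in the RefSeq table, 45 of the 52 genes meeting the rule stood next to another, in 11 runs of 2 to 9 genes, and 37 of these were measured. The longest run held 9 trypsins and the next 8 maltases. Levels within a run did not follow position alone, as the Mal-A, Jon65A and LMan runs show in the plot of neighbouring genes. Gene order alone was used, since the array annotation names no genome build.

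Arrays of the same time differed from each other in many of the digestive enzymes. ZT15 replicate 1 exceeded replicate 2 by 2 or more in 30 of the 42 probe sets, against 10.3% of all genes, and the opposite held in 0, against 1.25%. By family this held in 11 of 13 Jonah proteases, 8 of 9 trypsins, 7 of 10 maltases, 3 of 6 mannosidases, 1 of 3 lysozymes and not in the amylase probe set. In the testis and accessory gland list it held in 23 of 25 genes. At ZT3, replicate 1 was below the mean of replicates 2 and 3 by 2 or more in 10 probe sets, against 4.99% of all genes and 22 of 25 testis and accessory gland genes. ZT3 replicates 2 and 3 lay within 1 of each other in 38, against 99.3% of all genes. The 10 were 5 of the 10 maltases, etaTry, kappaTry, Jon65Aiii, Jon65Aiv and LysX. Replicate 1 was above that mean by 1 or more in 7, against 4.06% of all genes, and 6 of the 7 were Jonah proteases, the other LysP. The median of this ZT3 difference was 0.31 in the Jonah proteases, -1.74 in the trypsins and -2.19 in the maltases, against 0.085 over all genes. The difference between families was not tested.

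**Figure D4:**
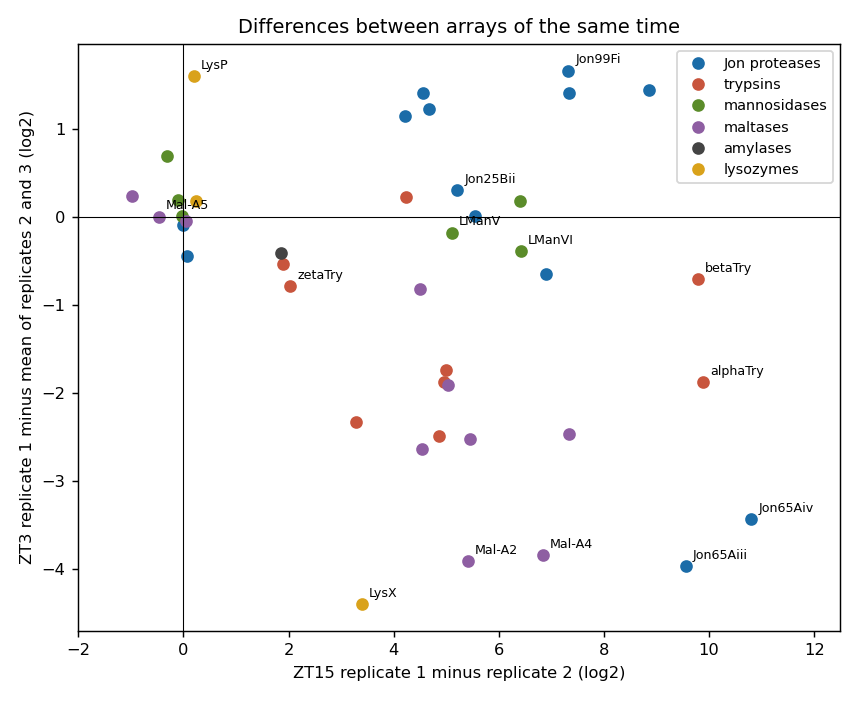
Difference between the 2 ZT15 arrays (x axis, log2) and between ZT3 replicate 1 and the mean of ZT3 replicates 2 and 3 (y axis, log2) for each of the 42 probe sets, coloured by family. Most points lie right of 0, and on the y axis they spread from -4.40 (LysX) to 1.67 (Jon99Fi), with maltases and trypsins mostly below 0.

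Most digestive enzymes had higher levels on the ZT7, ZT11, ZT19 and ZT23 arrays than at ZT3. All of the ZT7, ZT11, ZT19 and ZT23 arrays lay above all 3 ZT3 arrays in 28 of the 42 probe sets, against 14.7% of all genes. The opposite order held in 2, Mal-A5 and Jon66Cii, against 26.2% of all genes. The 28 were 9 Jonah proteases, 8 trypsins, 7 maltases, 3 mannosidases and the amylase probe set, with no lysozyme. The median difference of the mean of these 4 arrays from the ZT3 mean was 4.08 in the Jonah proteases, 2.16 in the trypsins and 2.23 in the maltases, against -0.17 over all genes. It was largest for LManVI (5.64), followed by Jon99Ci (5.34) and Jon25Biii (5.32). The same order of arrays held in 24 of the 25 testis and accessory gland genes. It also held in 3 of 8 core clock genes, 1 of 2 Malpighian tubule genes and 1 of 13 ovary genes. It held in none of the 10 salivary gland, 9 muscle, 9 eye or 5 fat body genes. With 1 array at each of these times there is no replicate check, and ZT15, the other time with replicates, held both a low and a high array.

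ZT7 was the lowest of the ZT7, ZT11, ZT19 and ZT23 arrays in 23 of the 42 probe sets, against 22.2% of all genes. It lay 1 or more below the next lowest in 7, against 0.501%. The 7 were Jon25Bi, Jon25Bii, Jon65Ai, Jon99Ci, Jon99Fi, etaTry and LysP, of which Jon99Fi differed most, at 4.65 at ZT7 and 8.46 at ZT19.

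Only ZT15 and ZT3 had replicate arrays, and limma was used to set one against the other. It fitted a mean for each of the 6 times. Its p-values were adjusted (Benjamini-Hochberg) across all 12105 probe sets with a level of 5 or more on at least 2 arrays. Of the 42 probe sets 39 were tested, and Jon66Cii, LManIV and LysS were not. limma called 0 of the 39 at an adjusted p of 0.05, against 0.0% of all probe sets tested, and 0 had an unadjusted p under 0.05, against 284 of all. The smallest unadjusted p of the set was 0.0742. Over all 42 the median difference was 0.57, above 0 in 31, against -0.018 over all genes. This median was -0.57 without ZT15 replicate 1 and 3.14 without ZT15 replicate 2. The standard errors were wide, with a median of 1.66 over the 39 against 0.25 over all probe sets tested.

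The members of smallest p were Jon25Bi, Jon65Aii, Jon25Bii and LManVI. LManVI had levels of 10.90 and 4.48 at ZT15, against 3.57, 3.69 and 4.22 at ZT3, a difference of 3.87 (SE 1.97). Jon25Bi had levels of 10.09 and 5.42 at ZT15, against 5.09, 4.17 and 3.55 at ZT3, a difference of 3.49 (SE 1.505). Both ZT15 arrays lay above all 3 ZT3 arrays in these 2 genes, by a small margin in ZT15 replicate 2. Jon65Aii differed by 3.15 (SE 1.40) and Jon25Bii by 3.54 (SE 1.64). These 4 genes were the only members of the 42 with both ZT15 arrays above all ZT3 arrays, against 4.16% of all genes, and 0 had both below, against 8.34%. The other markers differed by 2.61 (SE 1.57) for LManV and 1.42 (SE 0.78) for zetaTry. Members with a negative difference included Jon65Aiv (-2.67, SE 3.51), Jon65Aiii (-1.73, SE 3.23) and alphaTry (-1.20, SE 3.09), each with an error larger than the difference. The flat members had narrow errors: LManII differed by -0.0054 (SE 0.17), Mal-A5 by -0.049 (SE 0.20), Mal-B2 by 0.07 (SE 0.14) and LManI by 0.50 (SE 0.30). The smallest adjusted p of limma among the tested members was 0.99992.

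The difference between the times depended on which arrays were set against each other. Between the 2 arrays low in testis and accessory gland transcripts, ZT15 replicate 2 was above ZT3 replicate 1 in 19 of the 42 probe sets, against 53.4% of all genes. It was above by 2 or more in 0, against 0.0918%, and below by 2 or more in 7, against 0.459%. The 7 were Jon65Aiv (-5.78), alphaTry (-4.89), betaTry (-3.91), Jon65Aiii (-3.87), Jon99Ci (-3.35), Jon25Biii (-2.66) and Jon99Fi (-2.10), all serine proteases. Such a drop was not particular to serine proteases. It also held in 6 of the 32 other secreted gut and digestive proteins described below, and the opposite in 0. Among these 6 were Bace, an aspartic protease, and CG6295, of the lipase family. In the other arrays, ZT15 replicate 1 was above the mean of ZT3 replicates 2 and 3 in 37 of the 42 members, against 33.3% of all genes. It was above by 2 or more in 23, against 2.89%. This difference was 6.96 in Jon99Ci, 6.95 in LManVI, 6.89 in Jon99Fi and 6.43 in LManIII. With both arrays low in testis and accessory gland transcripts left out, limma called 30 of the 39 tested members higher at ZT15 and 0 lower, against 13.1% of all probe sets called higher and 18.1% called in either direction. That fit set 1 ZT15 array against 2 ZT3 arrays. Its spread within a time came from ZT3 replicates 2 and 3 alone, and the lone ZT15 array was assumed to vary like them. The ZT15 array left out lay 2 or more below the one kept in 30 of the 42 probe sets, so these calls measure no spread at ZT15. With ZT3 replicate 1 and ZT15 replicate 2 as a block limma called 0 of the 39, against 0.0% of all probe sets. In that fit 7 of the 39 (17.9%) had an unadjusted p under 0.05, against 1451 of all 12105 (12.0%). These 7 were iotaTry, zetaTry, LManI, LManVI, Mal-A2, Mal-A3 and the amylase probe set.

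**Figure D5:**
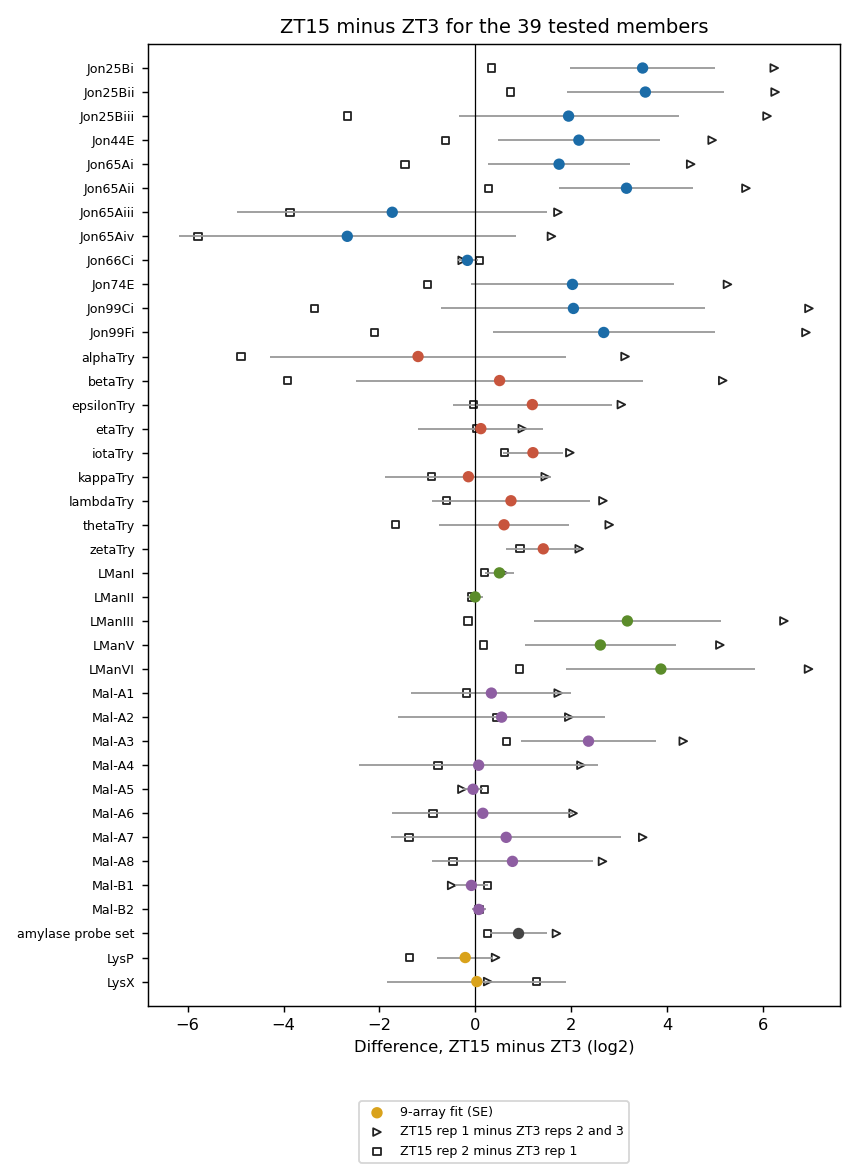
Difference ZT15 minus ZT3 (log2) for the 39 tested members: filled points, coloured by family, are limma's 9-array estimates with their standard errors as bars. Open squares set ZT15 replicate 2 against ZT3 replicate 1, and open triangles ZT15 replicate 1 against the mean of ZT3 replicates 2 and 3. For most members the 2 open symbols lie far apart, and for Jon65Aiv they lie at -5.78 and 1.59.

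A 24 h cosine and sine were fitted to the 9 arrays, tested with a moderated F in limma. This called 0 of the 39 tested members, against 0.033% of all probe sets tested, and 0 had an unadjusted p under 0.05, against 524 of all. The smallest unadjusted p in the set was 0.146, for LManI, with an amplitude of 0.31 (SE 0.14). The largest amplitude was that of Jon25Bii, 2.09 (SE 0.96), at a fitted peak of ZT16.2. LManVI had 2.08 (SE 1.10) and Jon99Fi 2.01 (SE 1.36). Fitted peaks lay from ZT13 to ZT18 in 28 of the 42, against 21.4% of all genes. The 2 arrays at ZT15, within that window, held the highest and the lowest median of the set. Of the 9 arrays fitted, 3 were at ZT3 and low in most members. How far these arrays set the fitted peaks was not tested, so the peaks are not read as times of highest level. Some amplitudes were also smaller than their error, as in betaTry (0.61, SE 1.47). With the 2 arrays low in testis and accessory gland transcripts as a block limma called 0 of the 39, against 0.248% of all probe sets. In that fit 5 of the 39 (12.8%) had an unadjusted p under 0.05, a smaller share than the 2045 of all 12105 (16.9%). These 5 were Mal-A2, LManI, iotaTry, zetaTry and Jon25Bii. Mal-A2 then had an amplitude of 0.76 (SE 0.18), against 0.61 (SE 1.07) without the block. The smallest adjusted p of a member in limma with the block was 0.218. Without both arrays limma called 0 of the 39 as rhythmic, against 0.562% of all probe sets. In that fit 28 of the 39 (71.8%) had an unadjusted p under 0.05, against 3433 of all 12105 (28.4%).

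A list of 35 other secreted gut and digestive proteins, of which 32 were measured, gave the wider pathway. Of the 32, 29 were tested. limma called 0 of these higher and 0 lower at ZT15 than at ZT3, against 0.0% of all probe sets tested. It called 0 as rhythmic, against 0.033%. In the 2 tests 0 and 1 had an unadjusted p under 0.05, against 2.35% and 4.33% of all probe sets tested. The median level of the 32 was 5.26, 5.92 and 5.96 at ZT3, 8.38 at ZT7, 8.86 at ZT11, 9.28 and 4.57 at ZT15, 8.64 at ZT19 and 8.65 at ZT23. It was low on the same 4 arrays as that of the digestive enzymes. All 4 single-time arrays lay above all 3 ZT3 arrays in 19 of the 32, against 14.7% of all genes. ZT15 replicate 1 exceeded replicate 2 by 2 or more in 19 of the 32, against 10.3% of all genes. CG6295, a member of the lipase family, had levels of 5.96, 3.60 and 3.41 at ZT3, 10.60 at ZT7, 10.89 at ZT11, 11.71 and 3.80 at ZT15, 10.83 at ZT19 and 10.66 at ZT23, with the same low arrays as Jon25Bii. Bace, an aspartic protease of the gut, had levels of 7.08, 7.38 and 7.36 at ZT3, 11.66 at ZT7, 12.62 at ZT11, 12.77 and 4.90 at ZT15, 11.94 at ZT19 and 11.13 at ZT23. yip7, a serine protease, had levels of 8.70, 10.61 and 10.26 at ZT3, 12.24 at ZT7, 13.27 at ZT11, 13.21 and 2.39 at ZT15, 12.75 at ZT19 and 12.44 at ZT23, where, as in Jon65Aiv, ZT15 replicate 2 was far below ZT3. Npc2g, which encodes a sterol-binding protein, stayed between 13.53 and 13.86. Other genes of the list went otherwise. CG8329 and Peritrophin-A were highest in ZT3 replicate 1 and ZT15 replicate 2. Muc68D was at 2.97 in ZT15 replicate 1 and 3.72 in replicate 2. In Mur29B (2.02, 9.35 and 9.25 at ZT3), tobi, CG31198 and CG31233, the lowest arrays were ZT3 replicate 1 and ZT15 replicate 2.

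Of 8 listed genes of gut cells that encode no secreted enzyme, 5 were measured, and they did not all move together. ZT3 replicate 1 and ZT15 replicate 2 were the lowest arrays in cad, mex1, GATAe and Ptx1, but not in Vha100-4. All 3 ZT3 arrays lay below the 4 single-time arrays in 1 of the 5, cad, against 14.7% of all genes. cad, a transcription factor of the hindgut and posterior midgut, had levels of 3.79, 5.44 and 5.09 at ZT3, 7.50 at ZT7, 7.57 at ZT11, 7.90 and 3.65 at ZT15, 7.77 at ZT19 and 7.42 at ZT23. The 3 ZT3 arrays and ZT15 replicate 2 were low, ZT3 replicates 2 and 3 less so than the other 2. mex1, a midgut gene, had levels of 4.07, 8.03 and 7.84 at ZT3, 7.25 at ZT7, 8.71 at ZT11, 8.61 and 4.33 at ZT15, 8.86 at ZT19 and 8.58 at ZT23, where ZT3 replicates 2 and 3 were high and ZT3 replicate 1 and ZT15 replicate 2 low. GATAe, which encodes a midgut transcription factor, had levels of 3.56, 4.99 and 5.26 at ZT3, 5.31 at ZT7, 5.25 at ZT11, 6.21 and 3.98 at ZT15, 6.02 at ZT19 and 5.57 at ZT23. ZT3 replicate 1 and ZT15 replicate 2 were its lowest arrays. Vha100-4, which encodes a subunit of the vacuolar proton pump, had levels of 5.75, 4.01 and 4.50 at ZT3, 5.47 at ZT7, 5.94 at ZT11, 5.94 and 6.30 at ZT15, 6.06 at ZT19 and 5.87 at ZT23. It ran the other way, highest in ZT15 replicate 2 and higher in ZT3 replicate 1 than in ZT3 replicates 2 and 3. Ptx1, a transcription factor gene, stayed at 6.75 to 7.65 across the arrays, with ZT3 replicate 1 at 6.75 and ZT15 replicate 2 at 6.87. limma called 0 of these 5 genes for ZT15 against ZT3 or as rhythmic, against 0.0% and 0.033% of all probe sets tested. None had an unadjusted p under 0.05, against 2.35% and 4.33% of all probe sets tested.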

How the data were processed

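The authors' deposited table holds 1 intensity value per probe set and array for 9 arrays. They made these values with GCRMA, per the submitters' processing notes; its version is not given in the sources used here. GCRMA gives log2 values, while the deposited values ran to 8120023. The slope over 18 hybridization control probe sets on log2 nominal concentration was 1.01 with the natural log of these values and 1.46 with log2, so the natural log was taken as the log2 level. If log2 were the true scale, each fold would be raised to the power 1.44. Of 18952 probe sets, 183 controls were left out. Names came from the platform annotation, updated by gene identifier through a RefSeq table (Release 6): 13647 of the remaining 18769 probe sets named 1 gene, 402 several and 4720 none, and 13544 matched. Each gene is represented by its probe set of highest mean. Tests used limma 3.58.1 in R 4.3.3 on probe sets reaching 5 on at least 2 arrays, and the fits were tested on simulated data. Named were the markers, up to 5 members of highest mean per family, the 5 of largest and of smallest range and up to 4 of smallest p in each test, with others by range; members outside this rule that the text gives in full (Jon99Fi, Mal-A3, and the muscle and gut list genes) were chosen after their values were seen. The members and lists were chosen with earlier results of these data known. Alternatives were the scale, centring, quantile normalization, filters, probe set averaging, blocks and left-out arrays. The number of arrays limits the precision.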

Additional observations from a re-analysis of the deposited data

How the results depend on the processing

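No member was called in either test under any single change of scale, centring, quantile normalization, filter, probe set averaging or block, or without any 1 array. The fit without both ZT3 replicate 1 and ZT15 replicate 2 called 30 for ZT15 against ZT3 and 0 as rhythmic. The median difference ran from -0.57 (without ZT15 replicate 1) to 3.14 (without ZT15 replicate 2) and was 0.57 with all arrays. It was 0.22, 0.92 and 0.84 without ZT3 replicates 1, 2 and 3 in turn, 1.17 with the 2-array block and 2.18 without both arrays. The median amplitude ran from 0.48 to 1.51, highest without ZT15 replicate 2 and next without ZT11 (1.05), and was 0.60 with all arrays. The count of 28 members with ZT3 below the 4 single-time arrays was 28 to 31 under its alternatives.

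Replicate numbers 1 and 2 occur at both ZT3 and ZT15. Deviations of same-numbered arrays from their group means correlated at -0.86 and -0.81 across probe sets, and the arrays share only a number. ZT3 replicate 1 with ZT15 replicate 2 gave 0.86, and ZT3 replicate 2 with ZT15 replicate 1 gave 0.81. The deviations of the 2 ZT15 arrays mirror each other, so these are the same values with the sign turned. With the replicate block the median difference was 0.84, and 0 members were called.

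With 1 array left out, the sign of the difference ZT15 minus ZT3 turned in 20 named members, which had ranges of -6.14 to 3.75 for alphaTry, -0.026 to 1.83 for amylase probe set, -4.39 to 5.39 for betaTry, -1.30 to 3.67 for epsilonTry, -1.73 to 5.61 for Jon25Biii, -6.51 to 3.04 for Jon65Aiii, -8.07 to 2.73 for Jon65Aiv, -1.42 to 5.47 for Jon74E, -2.39 to 6.48 for Jon99Ci, -1.75 to 3.24 for lambdaTry, -0.094 to 0.059 for LManII, -0.035 to 6.37 for LManIII, -0.48 to 0.32 for LysP, -0.071 to 0.18 for LysS, -1.66 to 1.72 for LysX, -1.94 to 2.60 for Mal-A1, -0.28 to 0.19 for Mal-A5, -2.57 to 2.88 for Mal-A6, -3.03 to 4.31 for Mal-A7, -1.52 to 2.72 for thetaTry. With both arrays left out it turned to 1.72 for Jon65Aiii, 1.59 for Jon65Aiv, 3.12 for alphaTry, 0.0093 for LManII, 0.42 for LysP. With arrays centred on their medians it was -0.014 for LysS, -0.036 for LysX, and with quantile normalization 0.0074 for LManII. The cause was not tested.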
